A study of Drosophila melanogaster with 12 samples.

Results

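The transcripts described here are those of 10 voltage-gated or related ion channel genes of fly neurons, namely para, Sh, Shab, Shaw, Shal, slo, eag, cac, na and Ih. A probe set was included when its single annotated gene symbol was 1 of these 10. All 10 genes were found on the array, with 18 probe sets among the 13966 tested, which stood for 10844 genes. Sh had 4 probe sets, Shab had 3, Shaw, cac and Ih had 2 each, and the other 5 genes had 1 each. Where a gene had several, they are lettered by falling mean signal, so that Sh a is the strongest Sh probe set, and the strongest is called the leading probe set.

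Heads of arrhythmic y w; tim01 flies were hybridised to 12 Affymetrix Drosophila Genome 1 arrays. On the CA day the flies, kept in darkness, spent 12 h at 18 °C (cold phase, arrays at 2, 6 and 10 h) and 12 h at 25 °C (warm phase, arrays at 14, 18 and 22 h). On the following AA day they stayed at 25 °C, and the same hours were sampled as the subjective cold and the subjective warm phase. Each of the 4 groups therefore held 3 arrays, 1 for each hour. The adults had entrained to the thermocycle for 4 d after eclosion. The tim01 allele, which leaves the flies without working TIM protein and without a running molecular clock, and the y and w markers were shared by every array, so no comparison here is between genotypes. A sample was RNA from a pool of heads separated from frozen bodies with sieves. The 3 arrays of a group were different hours rather than repeats, so the spread within a group holds both the error and any change with time of day. Temperature and hour of day change together within the CA day, and the AA day always came second, so that effects of temperature, hour and day order cannot be fully told apart.

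Voltage-gated channels set how a neuron fires. The sodium channel starts the action potential, potassium channels of several families end it and set the interval to the next one, calcium channels at the terminal release transmitter, and leak and pacemaker channels hold the resting potential near or away from threshold. All of these currents depend on temperature, and in flies several of the genes were first found through mutants that shake, become paralysed or lose locomotor rhythm. The comparisons below ask whether the amount of these transcripts in the head differs between the cold and the warm phase, and whether any difference is also present at constant temperature.

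No channel probe set passed the test in any of the 7 comparisons made with limma (adjusted p under 0.05 over all 13966 probe sets), nor in a test for a 24-h rhythm on either day. The range of a leading probe set over the 12 arrays had a median of 0.462 on the log2 scale, from 0.223 for na to 0.669 for Ih a, beside a median range of 0.393 over all tested probe sets and 0.401 over those above the 20th percentile on most arrays, and 3 of the 10 leading probe sets ranged less than the latter. The largest CA phase difference of any of the 18 probe sets was 0.18 (Sh a), which is 1.14-fold.

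How far a signal stood above background decides what can be read from it. The study's own cut-off, the 20th percentile of an array, lay between 3.67 and 3.76 on the 12 arrays. The brightest of 23 foreign control probe sets, for bacterial, yeast or mouse sequences, lay between 4.89 and 5.22. That is a strict level, close to the arrays' medians of 5.18 to 5.22, whereas the mean of these controls was 3.14 to 3.34. Shab a, Shaw a, Shaw b, Shal, eag and na were above both the 20th percentile and the brightest control on 12 of 12 arrays. Sh a, Shab b and slo were above both on 11 arrays, and Ih a on 10. Sh b, Sh c and cac a were above the 20th percentile on every array and above the brightest foreign control on 1, 0 and 0 arrays. The single para probe set was above the 20th percentile on 9 arrays and never above the brightest foreign control. Shab c, cac b and Ih b were above the 20th percentile on no array and Sh d on 1, so these 4 carry no usable level of their gene.

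**Figure D1:**
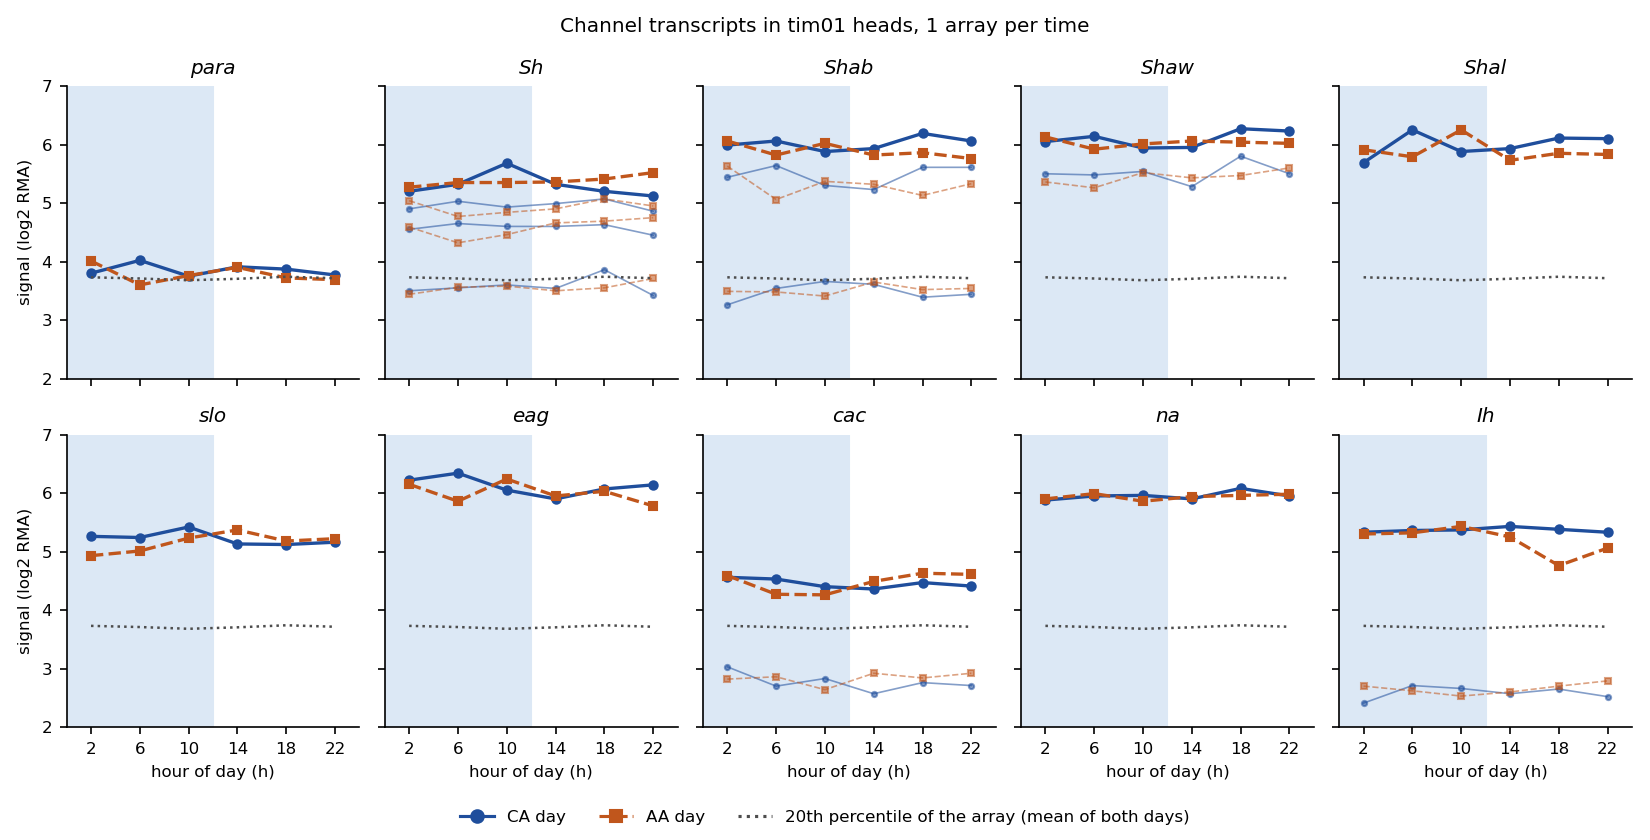
Signal (log2 RMA) of all 18 channel probe sets against hour of day, 1 panel per gene, with circles and full lines for CA arrays, squares and dashed lines for AA arrays, thick lines for the leading probe set and thin lines for the others. The shaded hours were at 18 °C on the CA day only, and the dotted line is the 20th percentile of the arrays; the weakest probe sets of Sh, Shab, cac and Ih lie on or below it on nearly all arrays, para lies near it, and Ih a dips to 4.76 on the AA 18-h array.

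Markers of several cell types were read on the same arrays. All 6 neuron markers found on the array (elav, nSyb, brp, ChAT, VGlut and futsch) were above the 20th percentile on all 12 arrays. The photoreceptor genes Arr1, Arr2, inaD and trp were too. This level cannot check the tissue, because 11157 of the 13966 tested probe sets were above it on most arrays. Among them were 6 of 6 gut genes, 4 of 4 ovary genes and 2 of 7 male accessory gland genes. The arrays' medians lay between 5.18 and 5.22, and the mean signal of the hybridisation spike-ins was between 8.65 and 9.13 except on the CA 18-h array, where it was 7.91. Gut genes stood above their 12-array mean on the CA 6-h, AA 2-h and AA 6-h arrays, by a median of 0.46, 0.76 and 0.58, and at or below it, between -0.31 and -0.03, on the other 9. In RNA from whole heads, fewer cells of a type and less RNA per cell cannot be told apart.

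para (probe set 143290_at) encodes the fly's voltage-gated sodium channel of the action potential. Its signals on the CA day were 3.80, 4.02 and 3.75 in the cold phase and 3.91, 3.87 and 3.77 in the warm phase. The AA values were 4.01, 3.60 and 3.76, then 3.90, 3.72 and 3.69. All groups overlapped, and the 12 values ran from 3.60 to 4.02 beside a 20th percentile of 3.67 to 3.76. The cold phase differed from the warm phase by 0.01 (95% interval -0.22 to 0.24, limma adjusted p = 0.987). It passed that percentile on 9 of 12 arrays, enough for the study's own filter, which asked for a majority. Every para value also lay above the mean of the foreign controls, 3.14 to 3.34, but none above the brightest of them. The para signal was therefore weak and close to the cut-off, and little can be read from its changes.

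Sh encodes the Shaker channel, which carries a fast, inactivating potassium current. In the cold phase of the CA day Sh a (145271_at) read 5.20, 5.32 and 5.68, and in the warm phase 5.32, 5.20 and 5.12. Its highest value of the day was on the 10-h array, and the groups overlapped because the 2-h cold value was below the 14-h warm value. AA values were 5.27, 5.35 and 5.35, then 5.36, 5.41 and 5.52, so the subjective warm phase was higher by a small step and without overlap. The CA difference was 0.18 (SE 0.107, limma adjusted p = 0.704) and the AA difference -0.11 (SE 0.107, adjusted p = 1.0). With the 10-h CA array left out the CA difference was 0.04, and with the 2-h one left out it was 0.28.

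The other Sh probe sets did not follow Sh a. Sh b (145274_at) lay between 4.77 and 5.07 and differed between the CA phases by -0.02. Sh c (151483_at) lay between 4.32 and 4.75. It read 4.55, 4.65 and 4.6 in the CA cold phase against 4.6, 4.63 and 4.45 in the warm phase, and 4.59, 4.32 and 4.46 against 4.66, 4.69 and 4.75 on the AA day. Its groups overlapped on the CA day and were apart on the AA day, with the subjective cold phase lower by 0.25 (SE 0.0815, unadjusted p = 0.00985, limma adjusted p = 1.0). Sh d (142150_at) stayed between 3.42 and 3.86. Over the 12 arrays Sh a correlated with Sh b at r = 0.00 and with Sh c at 0.35, while Sh b and Sh c correlated at 0.75. These are descriptions over arrays that also share normalization.

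Shab encodes a delayed rectifier, a slow potassium current that repolarises the cell. Shab a (148072_at) read 5.99, 6.06 and 5.88 in the CA cold phase and 5.93, 6.19 and 6.06 in the CA warm phase, and the groups overlapped. In AA it read 6.06, 5.82 and 6.02, then 5.82, 5.86 and 5.76. The 3 AA subjective warm values were all below the 3 CA warm values. The CA phase difference was -0.09 (SE 0.0891, limma adjusted p = 0.865), from -0.15 without the 14-h array to -0.02 without the 18-h array. Shab b (142312_at), which lay between 5.06 and 5.64, correlated with Shab a at r = 0.80 over the 12 arrays and had a CA difference of -0.02. Shab c (151526_at) lay between 3.26 and 3.66, under the 20th percentile throughout.

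Shaw encodes a potassium channel that opens with little voltage dependence and Shal one that carries an inactivating current in cell bodies and dendrites. Shaw a (143351_at) read 6.05, 6.14 and 5.94 in the CA cold phase and 5.95, 6.27 and 6.23 in the CA warm phase, with overlap. Its AA values were 6.13, 5.92 and 6.01, then 6.06, 6.04 and 6.02, an even narrower set. The CA difference was -0.11 (SE 0.0931, limma adjusted p = 0.835), and it was -0.21 without the CA 14-h array and -0.05 without the CA 18-h array. Shaw b (151187_at) lay between 5.26 and 5.80, with its highest value on the CA 18-h array, and differed by -0.02. Shal (143546_at) read 5.69, 6.25 and 5.88 in the CA cold phase, 5.93, 6.11 and 6.10 in the CA warm phase, 5.91, 5.79 and 6.25 in the AA subjective cold phase and 5.73, 5.85 and 5.83 in the AA subjective warm phase. Single arrays (6 h on the CA day, 10 h on the AA day) set both cold maxima, and the lowest and highest Shal values of the CA day fell in the same phase. Its CA difference was -0.11 with the widest interval of the leading probe sets (-0.41 to 0.19).

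slo encodes the calcium-activated potassium channel of large conductance, and of the 10 genes only its CA phases did not overlap. Its probe set (153878_at) read 5.26, 5.24 and 5.42 in the cold phase and 5.13, 5.12 and 5.16 in the warm phase. The means were 5.30 ± 0.10 and 5.14 ± 0.02 (SD, n = 3 each), a difference of 0.17 (SE 0.0896, 95% interval -0.03 to 0.36, limma adjusted p = 0.672). Over all tested probe sets, 5.55% had a cold phase wholly above the warm phase, so 1 of 18 is near the background. In AA slo ran the other way, with 4.93, 5.01 and 5.23 in the subjective cold phase and 5.37, 5.18 and 5.22 in the subjective warm phase, which overlapped. That difference was -0.20 (SE 0.0896, unadjusted p = 0.044, limma adjusted p = 1.0). Without the CA 10-h array the CA difference was 0.11.

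eag encodes a voltage-gated potassium channel named for the leg shaking of its mutants under ether. Its probe set (143138_at) read 6.22, 6.34 and 6.05 in the CA cold phase and 5.90, 6.07 and 6.14 in the CA warm phase. Matched AA values were 6.15, 5.86 and 6.24, then 5.95, 6.03 and 5.78. The groups overlapped on both days, and the cold-hour means were higher on both, by 0.17 (SE 0.113, limma adjusted p = 0.753) and 0.16 (SE 0.113, adjusted p = 1.0). The CA difference was 0.10 with either the 6-h or the 14-h array of that day left out.

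cac encodes the pore of the presynaptic calcium channel. cac a (151330_at) read 4.56, 4.53 and 4.40 in the CA cold phase and 4.36, 4.47 and 4.41 in the CA warm phase, a difference of 0.08 (SE 0.0932, limma adjusted p = 0.888), which was 0.05 without the 2-h or the 14-h array and 0.13 without the 10-h array. At the same hours of AA it read 4.59, 4.27 and 4.26, then 4.49, 4.63 and 4.61, and the subjective cold mean was lower by 0.20 (unadjusted p = 0.0467, adjusted p = 1.0). The AA groups overlapped through the 2-h array alone, and without it the difference was -0.31. cac b (143545_at) lay between 2.57 and 3.03, well under the 20th percentile, so its CA difference of 0.17 is a difference between background values.

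na (narrow abdomen) encodes a sodium leak channel needed for normal daily locomotor activity of flies. It was the steadiest member. Its probe set (145060_at) read 5.88, 5.95 and 5.96 in the CA cold phase, 5.90, 6.08 and 5.95 in the CA warm phase, 5.90, 5.99 and 5.86 in the AA subjective cold phase and 5.94, 5.96 and 5.98 in the AA subjective warm phase. The CA difference was -0.05 (SE 0.0712, limma adjusted p = 0.916), and its 95% interval of -0.20 to 0.11 was the narrowest of the leading probe sets.

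Ih encodes the cation channel opened by hyperpolarisation, a pacemaker current. Ih a (142401_at) read 5.33, 5.36 and 5.37 in the CA cold phase, 5.43, 5.38 and 5.33 in the CA warm phase and 5.30, 5.32 and 5.43 in the AA subjective cold phase. In the AA subjective warm phase it read 5.25, 4.76 and 5.06, below all 9 other arrays. The CA phases overlapped and differed by -0.03 (SE 0.101, limma adjusted p = 0.965). The AA difference was 0.32 (SE 0.101, unadjusted p = 0.00683, limma adjusted p = 1.0), and without the AA 18-h array it was 0.19. Ih b (151561_at) lay between 2.41 and 2.79, under the 20th percentile on every array, and correlated with Ih a at r = -0.47.

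Across the CA phase comparison, the 10 leading probe sets had a median difference of -0.0098, beside -0.01 over all tested probe sets, and 5 of the 10 lay above 0, beside 46.1% of all tested. At an unadjusted p under 0.05 the comparison called 8.15% of all tested probe sets and 0 of the 18 channel probe sets, and at the adjusted threshold it called 0.00716% of all, which is 1 probe set, and 0 of the 18. The 95% intervals of the leading probe sets, each for a single difference and not adjusted, reached 0.154 to 0.297 to either side. A phase difference smaller than that would not have been told from 0 here. The adjusted threshold is stricter, so these widths do not give the size of difference that it would have missed. For the AA phases the unadjusted test called 4 of the 18, namely Ih a, Sh c, slo and cac a, beside 4.55% of all tested probe sets, and limma's adjusted p was 1.0 for each. Their directions were mixed, with Ih a higher and the other 3 lower in the subjective cold phase. The AA phases did not overlap for 1 channel probe set that was higher in the subjective cold phase (Ih a) and for 3 that were lower (Sh a, Sh c and the background signal Shab c), beside 3.73% and 5.86% of all tested probe sets.

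**Figure D2:**
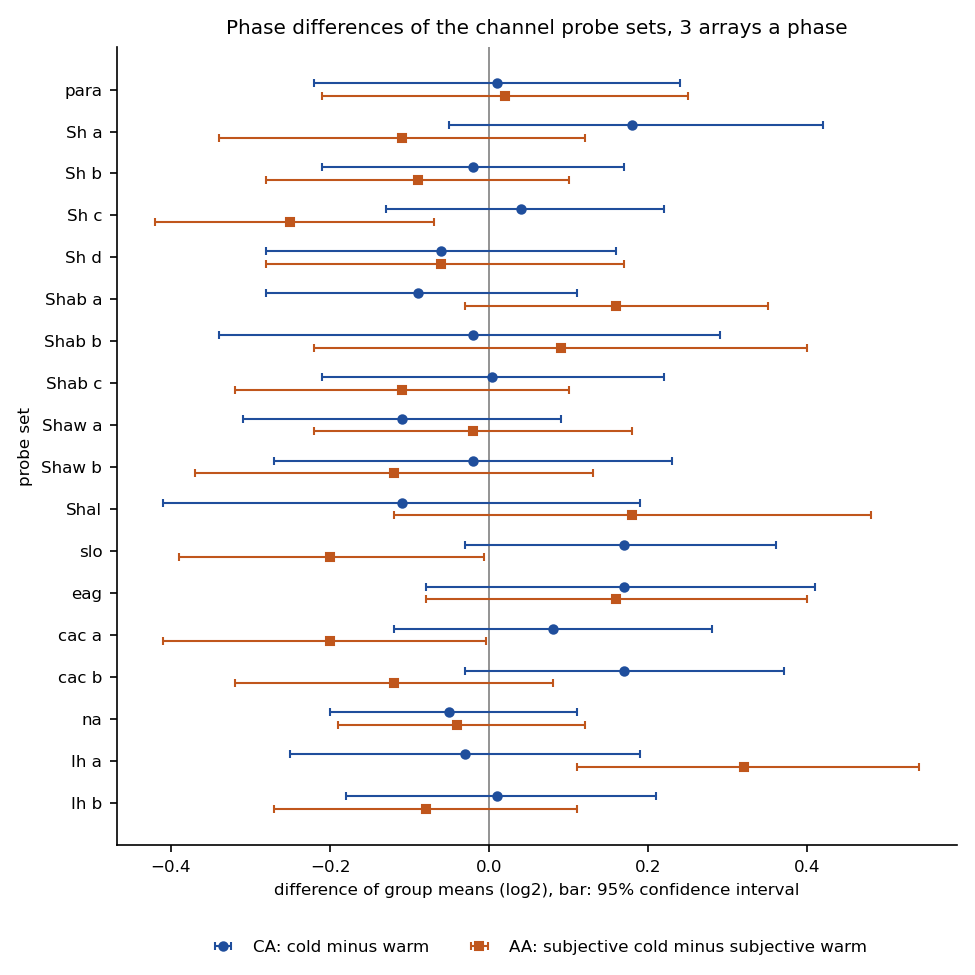
Cold minus warm difference of group means (log2, 3 arrays a group) for each of the 18 channel probe sets, with circles for the CA day and squares for the AA day and bars for the 95% confidence interval of each single difference, not adjusted for the number of probe sets. All 18 CA intervals cross 0, and the AA intervals that do not are those of Ih a, Sh c, slo and cac a.

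Whether the phase difference itself differed between the days was tested by the interaction term of the same fit. It called 0.0% of all probe sets at the adjusted threshold and 7.9% at an unadjusted p under 0.05, and of the channels 0 and 5. slo had the largest positive value, 0.37 (SE 0.127, unadjusted p = 0.0125, limma adjusted p = 0.574), made of 0.17 on the CA day and -0.20 on the AA day. Ih a had the largest negative value, -0.36 (SE 0.143, unadjusted p = 0.0267, adjusted p = 0.6), made almost wholly on the AA day, and without the AA 18-h array it was -0.23. Sh c (0.29), cac a (0.28) and cac b (0.29) were the other 3, of which cac b was a background signal. Each of these terms uses the same arrays as the phase differences above and adds no separate evidence.

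At 2, 6 and 10 h, the CA arrays were at 18 °C and the AA arrays at 25 °C, so this comparison sets temperatures against each other at matched hours. It called 3.54% of all tested probe sets at an unadjusted p under 0.05 and 0.0% at the adjusted threshold. Of the channels only slo was among the unadjusted calls. Its mean was 5.30 at 18 °C and 5.06 at 25 °C, a difference of 0.25 (SE 0.0896, unadjusted p = 0.0163, limma adjusted p = 1.0), and its 3 cold values lay above the 3 matched values, as did those of 4.15% of all tested probe sets. The other 9 leading probe sets differed by between -0.05 and 0.12. Setting the 3 arrays at 18 °C against all 9 at 25 °C called 0 of the 18 channels and 5.48% of all probe sets at an unadjusted p under 0.05, and 0 of the 18 and 0.0286% at the adjusted threshold. The largest channel values there were 0.19 for eag (SE 0.0924, limma adjusted p = 0.942) and 0.15 for slo (SE 0.0732, adjusted p = 0.919), and the groups of both overlapped.

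At 14, 18 and 22 h both days were at 25 °C, and the days differed in that the CA flies had left 18 °C at 12 h. This comparison called 14.6% of all tested probe sets at an unadjusted p under 0.05, the most of the 7, and 3 of the 18 channel probe sets, while the adjusted threshold called 0.0143% of all and 0 of the 18. Ih a was higher on the CA day, 5.38 ± 0.05 against 5.03 ± 0.24 (SD, n = 3 each), by 0.36 (SE 0.101, unadjusted p = 0.00365, limma adjusted p = 0.205). Without the AA 18-h array that difference was 0.23. Shab a was higher by 0.25 (SE 0.0891, unadjusted p = 0.0144, adjusted p = 0.260), and cac b, at background, was lower by 0.21. Shal (0.24) was also wholly above its AA values, and Sh a (-0.21), Sh c (-0.15), slo (-0.12), cac a (-0.16) and cac b were wholly below theirs. That made 3 probe sets above and 5 below without overlap, beside 8.37% and 11.3% of all tested probe sets. The largest difference among the channels was 1.28-fold.

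Averaged over all hours, the CA day against the AA day called 8.89% of all tested probe sets at an unadjusted p under 0.05 and 1 of the 18, Ih a (0.18, SE 0.0716, limma adjusted p = 0.504). Without the AA 18-h array that difference was 0.11. The comparisons share arrays with each other, so their values for a gene are not independent.

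**Figure D3:**
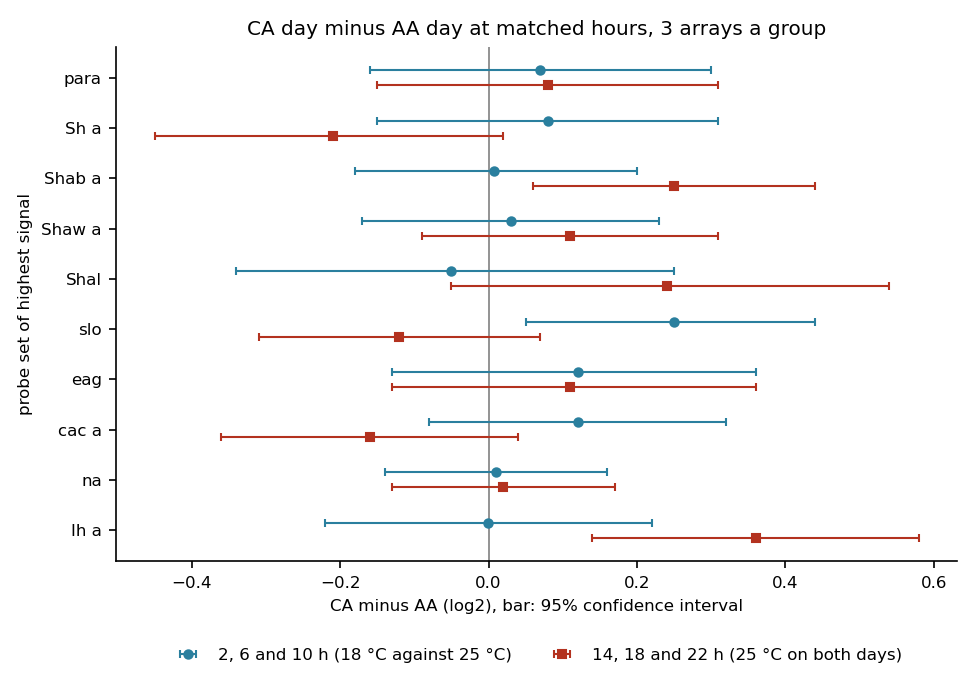
CA minus AA difference (log2, 3 arrays a group) of the 10 leading probe sets at 2, 6 and 10 h (circles, 18 °C against 25 °C) and at 14, 18 and 22 h (squares, 25 °C on both days), with bars for the 95% confidence interval of each single difference. The intervals that leave out 0 are slo at the cold hours (0.25) and Shab a (0.25) and Ih a (0.36) at the warm hours.

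Neuron markers were set beside the channels in the same warm-hour comparison. By their leading probe sets, 5 of the 6 on the array were higher on the CA day and 1 was lower, with a median of 0.34. Of these, 2 higher and 1 lower had an unadjusted p under 0.05, beside 14.6% of all tested probe sets, while 0 of 6 passed limma's adjusted threshold. nSyb, the synaptobrevin of synaptic vesicles, differed by 0.89 (SE 0.253, adjusted p = 0.205), VGlut, the vesicular glutamate transporter, by 0.61 (SE 0.220, adjusted p = 0.265) and elav, the pan-neuronal RNA-binding protein, by 0.48 (SE 0.231, adjusted p = 0.355), whereas ChAT, which makes acetylcholine, was at -0.31. With the CA 18-h array left out ChAT was at -0.17, and with the CA 22-h array left out elav was at 0.31. Further probe sets of these markers did not all follow the leading ones. The leading futsch probe set was higher on the CA day. A further one was lower there without overlap, as were 11.3% of all tested probe sets. It read 4.04, 4.01 and 4.11 in the CA warm phase against 4.47, 4.53 and 4.57 in the AA subjective warm phase. A further ChAT probe set read 6.64, 6.45 and 6.58 against 6.52, 6.52 and 6.55, with overlap. The remaining probe sets of brp and futsch overlapped too. Relative to each gene's mean over the 12 arrays, the median neuron marker lay between 0.04 and 0.08 in the CA cold phase, between -0.08 and 0.25 in the CA warm phase, between -0.11 and 0.25 in the AA subjective cold phase and between -0.31 and -0.14 in the AA subjective warm phase. The lowest of these, -0.31 and -0.29, were the AA 18-h and 22-h arrays on which Ih a was also lowest. No neuron marker was at background. The part of the neuron markers in the channel values was not tested. The median of the 10 leading channel probe sets, on the same scale, ran only from -0.15 on the AA 6-h array to 0.08 on the CA 6-h and CA 18-h arrays.

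**Figure D4:**
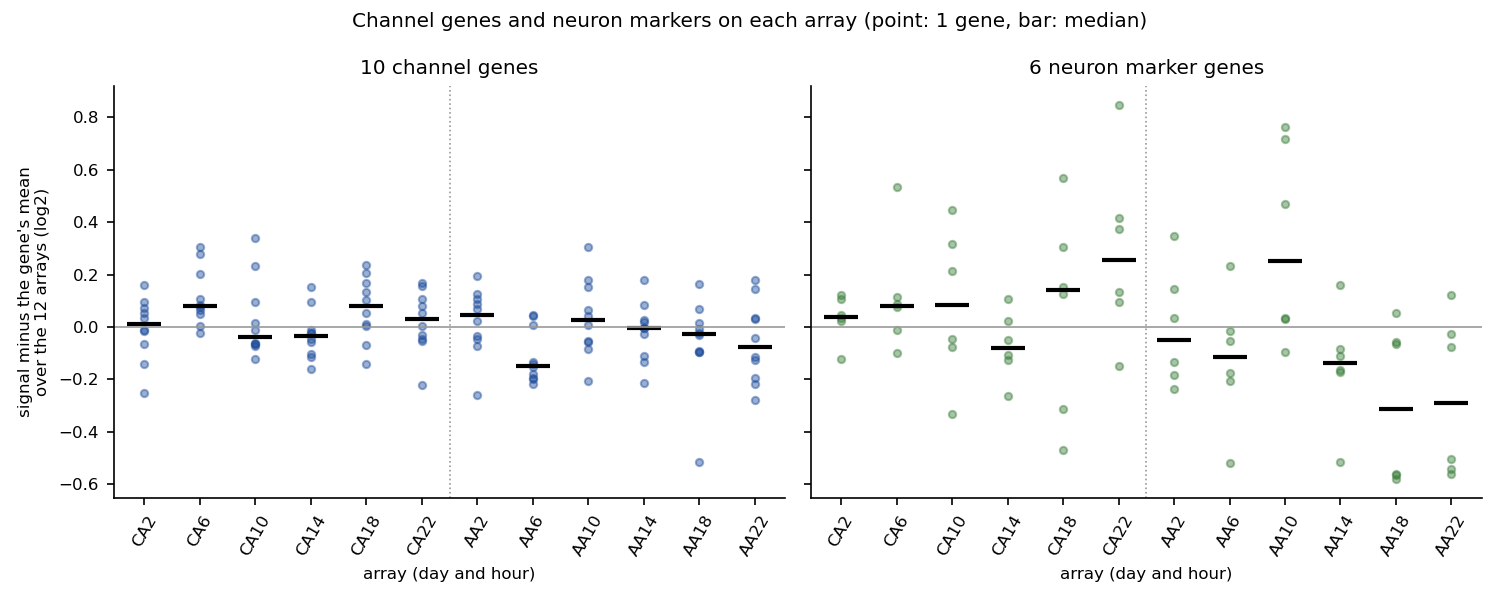
Signal minus the gene's own mean over the 12 arrays (log2) for the leading probe sets of the 10 channel genes (left) and of 6 neuron markers (right), 1 point per gene and a bar for the median, by array. The channel medians stay between -0.15 and 0.08, and the neuron marker medians reach -0.31 and -0.29 on the AA 18-h and 22-h arrays.

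A 24-h cosine was fitted to each day. limma's F test called 7 of 13966 probe sets (0.0501%) on the CA day and 0 on the AA day, and no channel. At an unadjusted p under 0.05 it called 2 of the 18 on the CA day, beside 8.72% of all. They were Sh a and Shab c, of which Shab c was under the 20th percentile throughout. On the AA day the F test called 4 of the 18, beside 4.78%, namely Ih a, cac a, Sh c and slo. For Sh c and slo 87.4% and 77.1% of the AA variance was at 24 h (exact permutation p = 0.05 and 0.15). Sh a had the smallest CA value, with 77.5% of its variance at 24 h, an amplitude of 0.225 and a fitted peak at 10 h (exact permutation p = 0.0333 over the 60 distinct orders of 6 times, where 0.0167 is the smallest possible, limma adjusted p = 0.399). In CA 3.49% of all tested probe sets had an exact permutation p under 0.05, and Sh a was the 1 channel probe set among them. In AA cac a had 89.1% of its variance at 24 h with a fitted peak at 20.6 h (exact permutation p = 0.05, adjusted p = 0.952), and Ih a had 76.5% with an amplitude of 0.271 and a fitted peak at 7.35 h (exact permutation p = 0.0667, adjusted p = 0.952). The CA amplitudes of cac a and Ih a were 0.0791 and 0.0447, and a difference of rhythm between the days was not tested. An exact permutation p under 0.05 was reached on the AA day by 3.08% of all tested probe sets and by 1 channel probe set, Ih b, whose values were under the 20th percentile. The sodium leak channel gene na had amplitudes of 0.0471 on the CA day and 0.0281 on the AA day.

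The channels did not move as one block. Over the 12 arrays the 45 pairs of leading probe sets had a median correlation of 0.05, from -0.66 for Shab and Sh to 0.76 for Shab and Shaw, and 27 pairs were above 0. The highest values joined Shab with Shaw, eag (0.71) and Shal (0.66), and the lowest joined Sh with Shab and with Shaw (-0.65), and Ih with cac (-0.64). All points come from the same 12 arrays and their shared normalization. Among 8795 other detected genes, the one whose leading probe set ran most like each channel was Hph for Shaw (r = 0.95), Prosalpha3T for cac (0.95), Rab3-GEF for Shal (0.94), trv for eag (0.94), Ype for Sh (0.93), Dpp10 for Shab (0.92), CG1418 for na (0.91), Alg9 for slo (0.89), Spec2 for para (0.88) and Ythdc1 for Ih (0.84). Each is the highest of all those compared, over 12 arrays.

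Other potassium channel genes were read from a list of 10. Of the 9 found on the array, 0 passed the adjusted test between the CA phases, 4 lay above 0 and 5 below, and the median was -0.02. The smallest p was that of sei, the fly ERG-type potassium channel, whose mutants are paralysed by heat. It read 6.35, 6.32 and 6.40 in the CA cold phase and 6.27, 5.92 and 6.13 in the CA warm phase, without overlap. A cold phase wholly above the warm phase was found for 5.55% of all tested probe sets. On the AA day sei read 6.27, 6.60 and 6.5 against 6.54, 6.52 and 6.56, with overlap. The CA difference was 0.25 (SE 0.0986, limma adjusted p = 0.580), and at the warm hours the CA day was lower than the AA day by 0.44 (SE 0.0986, unadjusted p = 0.000662, adjusted p = 0.175). Shawl, a further Shaw-family channel, and Ork1, an open rectifier that sets a leak current, were next, at -0.06 and 0.21 (adjusted p = 0.865 and 0.877).

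Of the 5 other sodium, calcium and cation channel genes, 0 passed between the CA phases, with 2 above 0, 3 below and a median of -0.02. Ca-alpha1D, the L-type calcium channel, differed by 0.23 (SE 0.116, limma adjusted p = 0.643), and the cyclic-nucleotide-gated subunits CngA and Cngl by -0.04 and -0.03. NaCP60E, a sodium channel homologue named after its values were seen, was 0.36 higher on the CA day at the warm hours (adjusted p = 0.302), and Ca-alpha1D was 0.33 lower there (SE 0.116, adjusted p = 0.262), or 0.20 lower without the CA 18-h array. These were the 2 of the 5 with an unadjusted p under 0.05, which 14.6% of all tested probe sets had.

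Accessory subunits and partners were represented by 14 of 16 listed genes. Between the CA phases 0 passed, 4 lay above 0 and 10 below, and the median was -0.01. Slip1, which encodes a binding partner of the Slo channel, had the smallest p. It read 4.36, 4.13 and 4.63 in the cold phase and 4.30, 3.36 and 4.22 in the warm phase, with overlap. The value of 3.36, on the CA 18-h array, lay under the 20th percentile of that array, 3.72. The difference of Slip1 was 0.41 (SE 0.201, limma adjusted p = 0.631). unc80, a subunit of the channel complex that na forms, differed by 0.19 (SE 0.101, adjusted p = 0.671), and Teh4, of the TipE family that assists Para, by 0.13 (adjusted p = 0.755). At the warm hours 4 of the 14 were higher on the CA day at an unadjusted p under 0.05, beside 14.6% of all tested probe sets, and 0 passed the adjusted test. They were named after their values were seen, and are Hk, the beta subunit of Shaker (0.62, adjusted p = 0.265), Teh2, a TipE homologue (0.34, adjusted p = 0.232), unc80 (0.24, adjusted p = 0.304) and Ca-beta, the calcium channel beta subunit (0.21, adjusted p = 0.285). Hk read 7.27, 7.11 and 7.41 in the CA warm phase and 6.74, 6.51 and 6.67 in the AA subjective warm phase. Those AA values were the 3 lowest of the day, and the groups did not overlap, as for 8.37% of all tested probe sets. A further Hk probe set was also wholly higher on the CA day, and 1 further Ca-beta probe set overlapped. Another Ca-beta probe set was wholly lower on the CA day, as were 11.3% of all tested probe sets. It read 3.54, 3.34 and 3.46 against 3.65, 3.72 and 3.70, all under the 20th percentile of their arrays.

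Among 3 regulators of channel RNA, 0 passed between the CA phases. pum encodes an RNA-binding repressor that acts on para transcripts in flies. It read 5.45, 5.13 and 5.46 in the CA cold phase and 4.93, 4.97 and 5.09 in the CA warm phase, without overlap. The same held for 5.55% of all tested probe sets. All 6 AA values of pum lay between 5.12 and 5.27. The difference was 0.35 (SE 0.0907, unadjusted p = 0.00192, limma adjusted p = 0.321). Adar, which edits channel RNAs, and mle, a helicase in which a mutation alters para splicing, lay at -0.28 and -0.20 (adjusted p = 0.711 and 0.737). Several of these CA differences rested on the CA 18-h array, the one with the low spike-in signal. Without it they were 0.11 for Slip1, 0.15 for sei, 0.10 for Ca-alpha1D, 0.07 for unc80, -0.08 for Ork1, 0.23 for Teh4, -0.04 for Adar and -0.0037 for mle, and 0.34 for pum. Arrays of this kind read the amount of the probed part of a transcript and no editing or splicing.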

How the data were processed

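The authors deposited log2 signals made with RMA, which corrects background, quantile-normalizes the arrays of an experiment and summarises each probe set by median polish, and no version is given in the sources used here. Because this equalises the arrays, a shift of most transcripts together would be lost. Of 14010 probe sets 44 controls were set aside, and 12443 of the other 13966 carried 1 gene symbol, taken from the platform annotation and updated through the Release 6 plus ISO1 MT gene table, which served for names alone. limma 3.58.1 (R 4.3.3) fitted 4 group means to all 12 arrays (residual degrees of freedom 8, prior 5.28), with two-sided moderated tests and Benjamini-Hochberg adjustment over 13966 probe sets. Rhythms were tested with a 24-h cosine and sine per day, and by an exact permutation of each probe set's 6 values. The script was tested on simulated data. Named were all members, and of each other list the genes past the threshold or else the 3 with the smallest CA p. Members and lists were chosen with earlier results of these data known. Samples were not stated to be independent cultures, so p-values measure the spread between these arrays, whose number limits the precision. Probe set and promoter sequences were not used here.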

Additional observations from a re-analysis of the deposited data

How the results depend on the processing

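No channel probe set passed the adjusted threshold under any alternative (lowest limma adjusted p of the 18 over the 7 comparisons 0.112, and 0.196 for a rhythm). Over 85 single-probe-set differences and 1639 alternative values, 1585 kept their sign and 54 changed it, with no value past the threshold, and 62 differences never changed sign. Counts over all 13966 probe sets were less stable. With array weights they were 3 (CA phases, from 1), 1 (cold hours, CA against AA, from 0), 8 (warm hours, from 2), 9 (18 °C against all 25 °C, from 4) and 22 (CA rhythm, from 7). Without the 2- and 14-h arrays they were 14, 1, 0 and 11 for the first 4 of these. With only the arrays of the comparison or day they were 0 for the CA phases, the warm hours and the CA rhythm, and quantile normalization gave 1 for the warm hours. Residuals of same-hour arrays of the days had correlations of mixed sign, from -0.228 to 0.251. They were taken from means of 3 arrays, which ties them to each other, so they cannot settle whether such arrays were paired. With the hour as a replicate block the count was 0 for the warm hours (from 2). With 1 array left out at a time the counts ran from 0 to 9 for the CA phases, 0 to 5 for the AA phases, 0 to 2 for the interaction, 0 to 1 for the cold hours, 0 to 10 for the warm hours, 0 to 13 for 18 °C against 25 °C, 0 to 1 for the days, 2 to 56 for the CA rhythm and 0 to 1 for the AA rhythm. The median over the channels moved once, to 0.15 for the day difference without the 2- and 14-h arrays.

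Small differences changed sign, and the cause was not tested. For the CA phases, array weights gave para -0.01, Sh d 0.01, Shab c -0.01, Shaw b 0.06 and Cngl 0.02, quantile normalization gave Shab c -0.0055 and Ih b -0.0094, and leaving out the 2- and 14-h arrays gave Sh b 0.02 and Ih a 0.002. With 1 array left out, the CA phase difference ran from -0.07 to 0.07 for para, -0.08 to 0.03 for Sh b, -0.01 to 0.08 for Sh c, -0.15 to 0.07 for Sh d, -0.15 to 0.06 for Shab b, -0.08 to 0.12 for Shab c, -0.14 to 0.12 for Shaw b, -0.27 to 0.02 for Shal, -0.09 to 0.006 for na, -0.04 to 0.10 for Ih b, -0.08 to 0.40 for Ork1 and -0.12 to 0.06 for Cngl. The AA phase difference of para was -0.03 with array weights and without the 2- and 14-h arrays and ran from -0.09 to 0.11, and that of Shaw a from -0.08 to 0.03. At the cold hours CA minus AA ran from -0.02 to 0.18 for para, -0.06 to 0.18 for Sh a, -0.07 to 0.06 for Shab a, -0.02 to 0.08 for Shaw a, -0.20 to 0.09 for Shal (0.04 without the 2- and 14-h arrays), -0.02 to 0.05 for na and -0.03 to 0.04 for Ih a. At the warm hours na was -0.01 with array weights and ran from -0.03 to 0.06. para and the 4 probe sets at background limit what can be said of their genes.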
